A study of Hordeum vulgare with 12 samples.

Results

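The expansin and xyloglucan endotransglucosylase/hydrolase (XTH) genes of barley (Hordeum vulgare, cultivar Golden Promise) were examined in a crown-root inducible system. Members were the genes whose deposited description holds the word expansin or the words xyloglucan endotrans and that had at least 10 reads in at least 3 of the 12 libraries. Of 63658 genes in the count table, 141 had such a description and 76 of these were kept, 42 expansins and 34 XTH genes. All 76 were among the 24920 genes that could be tested. By the descriptions of their Arabidopsis and rice homologs, 14 of the expansins were alpha-expansins, 23 were beta-expansins, 4 were expansin-like genes and 1 had no class. The other 65, 52 expansins and 13 XTH genes, fell under the minimum, and 35 of them had no read in any library. The third-largest count, which decides membership, was 9 for the gene just outside and 11 for the gene just inside.

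Expansins loosen the plant cell wall at acid pH without cutting its polymers, so that the wall yields to turgor. XTH enzymes cut xyloglucan, a hemicellulose that coats cellulose, and join the cut end to another chain or to water. Grasses carry many beta-expansins and comparatively little xyloglucan in their primary walls, and in Arabidopsis auxin-regulated genes of both families act in the tissue that overlies an emerging lateral root.

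Seedlings of every group grew on NPA at 50 µM, which inhibits polar auxin transport, before a transfer to the synthetic auxin 1-NAA at 50 µM. The groups were crowns taken before the transfer (0 h, NPA only) and crowns taken 30 min, 1 h and 3 h after it, with 3 libraries a time and a pool of 5 crowns, each cut to 2 mm, in every library. Crowns that stayed on NPA were not analysed here at the later times. Auxin, the end of NPA, the transfer itself and the time of day therefore cannot be told apart. A crown is a mixture of tissues, in which fewer cells of a type and less RNA per cell cannot be told apart either.

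Between 16093892 and 34019480 reads a library were assigned to genes, and 3 reads, the level under which a gene counts as not detected, correspond to 0.0849 to 0.193 CPM (counts scaled to library size). Chlorophyll a-b binding genes, which mark green tissue, summed to 2563 to 2933 CPM at 3 h and to 4103 to 5249 CPM at 0 h. Of the 31 tested, 17 were lower at 3 h, where 0.799% of all tested genes were. With the replicate block 26 changed, where 5.09% of all tested genes did. Genes of phloem words summed to 36.8 to 47.6 CPM at 3 h and to 29.6 to 32.3 CPM at 0 h, with 1 of 4 higher (1.68% of all tested genes). No gene of the laccase, histone H4, root hair or grain storage words passed by edgeR at 3 h against 0 h without the block. With it 1 of 24 laccases did, where 5.09% of all tested genes did. Histone H4 genes, which mark dividing cells, summed to 4975 to 7164 CPM at 3 h and to 5399 to 7999 CPM at 0 h. The grain storage genes, with 2 tested, summed to 3.01 to 5.06 CPM at 3 h and to 3.37 to 4.38 CPM at 0 h. The words xylem cysteine and xylem serine, for peptidases of xylem, matched no gene. The part of these shifts in the values below was not tested.

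By median level XTH genes stood above expansins, though not by summed level in every library. In replicates 2 and 3 of 3 h expansins summed to 1589 and 1451 CPM. XTH genes summed to 1569 and 1268 CPM there, and to more than expansins in every other library. Per kilobase of coding length, the median level over all libraries was 26.9 CPM for the 34 XTH genes and 8.83 CPM for the 42 expansins, and in each family about as much of the sum came from few genes, 53.0% from the top 4 XTH genes and 48.0% from the top 4 expansins. The highest XTH gene was HORVU.MOREX.r2.7HG0604620.1 (chromosome 7H, 577420210 to 577421282, minus strand, written 7HG0604620 below, as the other genes are by the middle of their identifiers). It averaged 343 CPM per kilobase, and its first listed Arabidopsis homolog is AT5G57560.1, the touch-induced TCH4. It was followed by HORVU.MOREX.r2.2HG0165790.1 with 259, HORVU.MOREX.r2.4HG0299490.1 with 189 and HORVU.MOREX.r2.7HG0604490.1 with 178 CPM per kilobase. The ranges of these 4 over the 12 libraries overlapped each with the next. The XTH gene 4HG0299490 varied least among them, from 138 CPM to 190 CPM over all libraries, and it passed in no comparison.

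The 4 highest expansins were all beta-expansins. HORVU.MOREX.r2.1HG0044660.1 (1H, 379944368 to 379946080, plus strand) averaged 237 CPM per kilobase, HORVU.MOREX.r2.1HG0044650.1 165, HORVU.MOREX.r2.4HG0346590.1 121 and HORVU.MOREX.r2.4HG0346610.1 92.2 CPM per kilobase. The first pair are neighbours on 1H and the second pair neighbours on 4H. The highest alpha-expansin, HORVU.MOREX.r2.3HG0247980.1, reached 81.0 CPM per kilobase, and the highest expansin-like gene, HORVU.MOREX.r2.4HG0341400.1, 91.7.

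**Figure D1:**
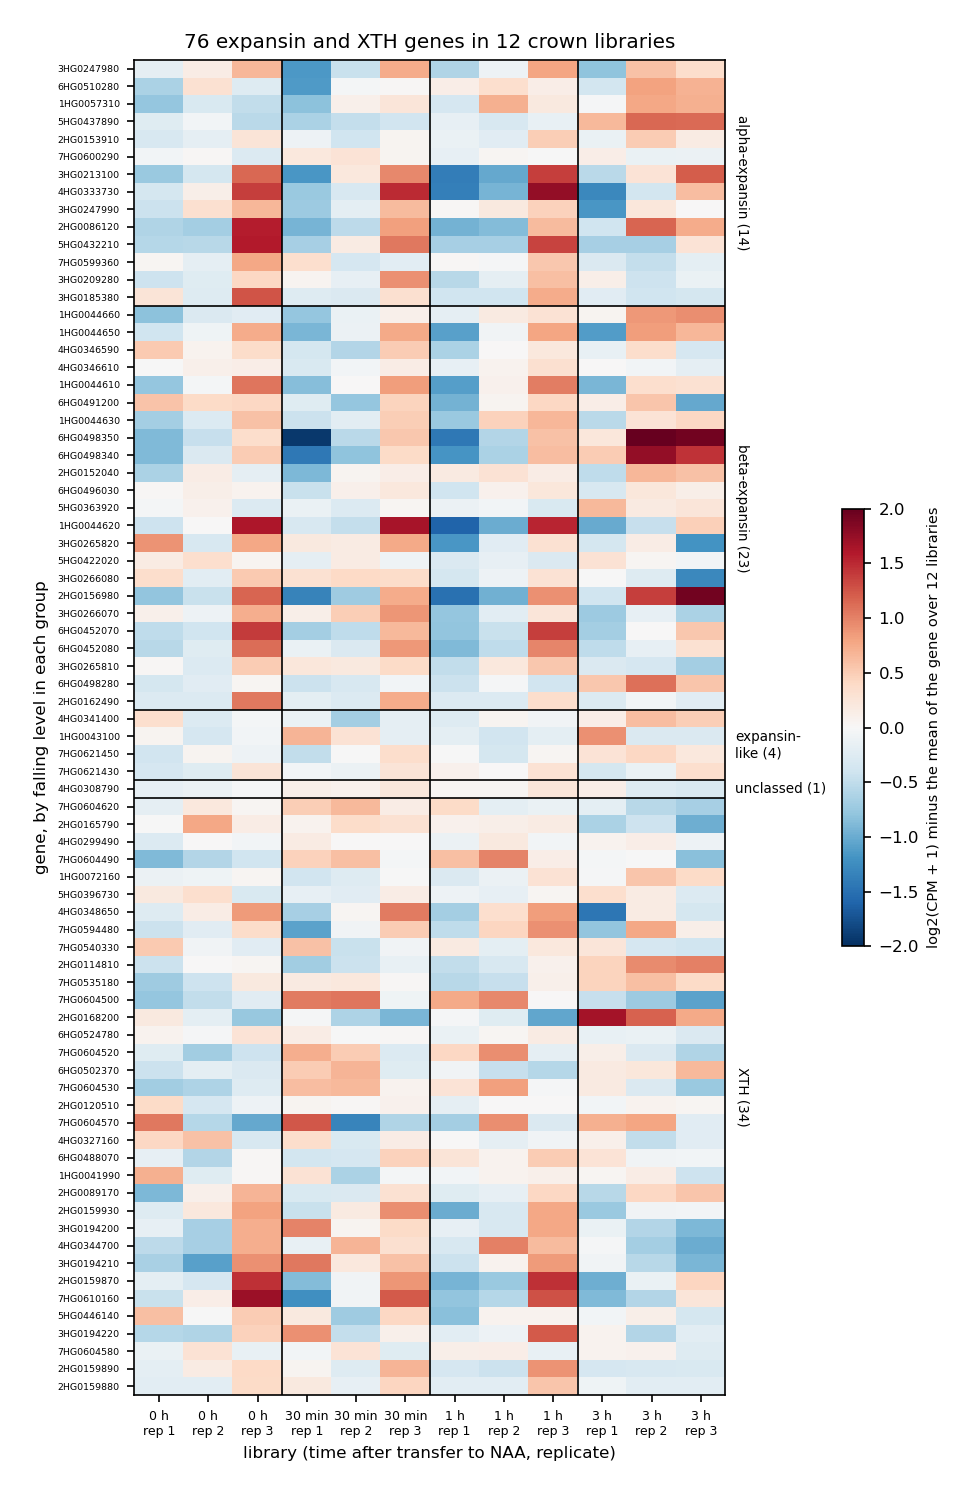
Each row is 1 of the 76 members, grouped by class and ordered by falling level, and each column 1 library. Colour gives log2(CPM + 1) minus the mean of that gene over the 12 libraries. Columns of replicate 3 are redder than those of replicate 1 over most expansin rows, and few rows change colour from 0 h to 3 h as a block.

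Among expansins replicate 3 tended to stand above replicate 1 at every time, by a median log2 ratio of 0.64 with 1 CPM added, against 0.09 among XTH genes and 0.0 over all tested genes. Of 42 expansins, 24 (57.1%) were higher in replicate 3 than in replicate 1 at all 4 times, against 9 of 34 XTH genes (26.5%) and 20.4% of all tested genes. The opposite order at all 4 times was held by 1 expansin (2.38%), 4 XTH genes (11.8%) and 19.9% of all tested genes. This count was chosen after the values were seen and is a description of these libraries. Alpha-expansins and beta-expansins shared the pattern, with 9 of 14 and 14 of 23.

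In the summed level of the 23 beta-expansins the 3 libraries of a time, replicates 1 to 3, had 568, 644 and 900 CPM at 0 h, 436, 598 and 935 CPM at 30 min, 458, 699 and 972 CPM at 1 h and 583, 1121 and 1009 CPM at 3 h. Replicate 1 was lowest at every time, and the ranges of all 4 times overlapped. The 34 XTH genes summed to 1378, 1670 and 1592 CPM at 0 h, 1805, 1871 and 1732 CPM at 30 min, 1639, 1771 and 1707 CPM at 1 h and 1460, 1569 and 1268 CPM at 3 h, and replicate 2 was highest at every time. The 30 min sums of XTH genes lay above all 3 sums of 0 h. Replicate 1 also had the fewest assigned reads at each time, 16093892 to 22710691, against 23737664 to 34019480 in replicate 3. Histone H4 genes, the mark of dividing cells, summed highest in replicate 1 and lowest in replicate 3 at each time. In replicates 1 and 3 they had 7999 and 5399 CPM at 0 h and 7364 and 6420 CPM at 30 min. At 1 h they had 6693 and 5103 CPM, and at 3 h 7164 and 4975 CPM. The part of depth or of dividing cells in the pattern was not tested.

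**Figure D2:**
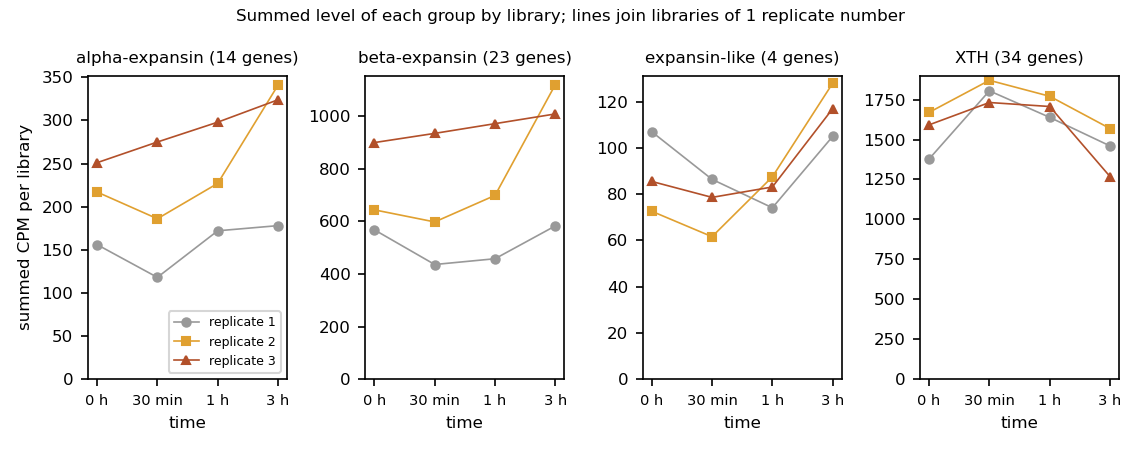
Points give the summed CPM of each class in 1 library, by time, and lines join the libraries of 1 replicate number. For alpha-expansins and beta-expansins replicate 1 lies lowest at each time, and for XTH genes the 30 min points lie highest in all 3 replicates.

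An alpha-expansin with this pattern was HORVU.MOREX.r2.3HG0213100.1, whose Arabidopsis and rice homologs are both named Expansin-A14. It had 3.09, 4.38 and 14.2 CPM at 0 h, 2.05, 6.92 and 12.4 CPM at 30 min, 1.63, 2.38 and 16.8 CPM at 1 h and 3.73, 7.26 and 14.9 CPM at 3 h. Replicate 3 was highest at each of the 4 times, and the times overlapped throughout. It and the other genes of this paragraph were picked after their values were seen. The beta-expansin HORVU.MOREX.r2.1HG0044620.1 behaved likewise, with 16.6, 17.0, 15.5 and 7.01 CPM in replicate 3 of 0 h, 30 min, 1 h and 3 h and no more than 4.76 CPM in any other library. A pair of XTH genes with the Arabidopsis homolog XTH16, HORVU.MOREX.r2.2HG0159870.1 and HORVU.MOREX.r2.7HG0610160.1, were also highest in replicate 3 at each time. At 0 h they had 7.64 and 8.29 CPM there and no more than 2.13 CPM in the other 2 libraries.

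Few members passed edgeR's quasi-likelihood test, fitted over all genes with time alone and called at a Benjamini-Hochberg adjusted p under 0.05. At 30 min against 0 h none of the 76 passed, where 0.00401% of all tested genes did; at an unadjusted p under 0.05 there were 5 XTH genes and no expansin (background 4.39%), and DESeq2 called none of either family (background 0.385%). None passed at 1 h against 0 h either (background 0.0963%), with 4 XTH genes and 2 expansins at an unadjusted p under 0.05 (background 5.75%), and 1 XTH gene by DESeq2 (background 0.486%). By 3 h, 1 expansin and 2 XTH genes passed against 0 h (background 2.48%), 2 of them higher (background 1.68%) and 1 lower (background 0.799%). The share of members called was 3.95%, or 3 of 76. By unadjusted p under 0.05 there were 11 expansins and 7 XTH genes (background 10.4%), by DESeq2 3 of each family (background 4.46%), and the authors' deposited table called 2 expansins and 3 XTH genes (background 4.3%). Libraries of the same replicate number deviated together, and with that number as a block in the fit 5 expansins and 4 XTH genes passed (11.8% of members, background 5.09%), 8 higher (background 2.96%) and 1 lower (background 2.13%).

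The median log2 fold change at 3 h against 0 h was -0.07 over the expansins and -0.25 over the XTH genes, against -0.00425 over all tested genes, with 20 of 42, 14 of 34 and 49.3% above 0. Without replicate 3 of 0 h these medians were 0.44 for expansins and 0.09 for XTH genes, so their sign rests on 1 library. Medians at 30 min were -0.12 for expansins and 0.0337 for XTH genes, with 13 of 42 and 18 of 34 above 0 (background 47.6%), and at 1 h they were -0.0936 and -0.00448. All 3 comparisons with 0 h share the same 0 h libraries. By mean level, 0 h was the highest time for 16 expansins, 30 min for 7, 1 h for 3 and 3 h for 16. For the XTH genes 0 h was the highest time in 10 genes, 30 min in 11, 1 h in 7 and 3 h in 6, and 17 of the 34 had their lowest mean at 3 h.

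**Figure D3:**
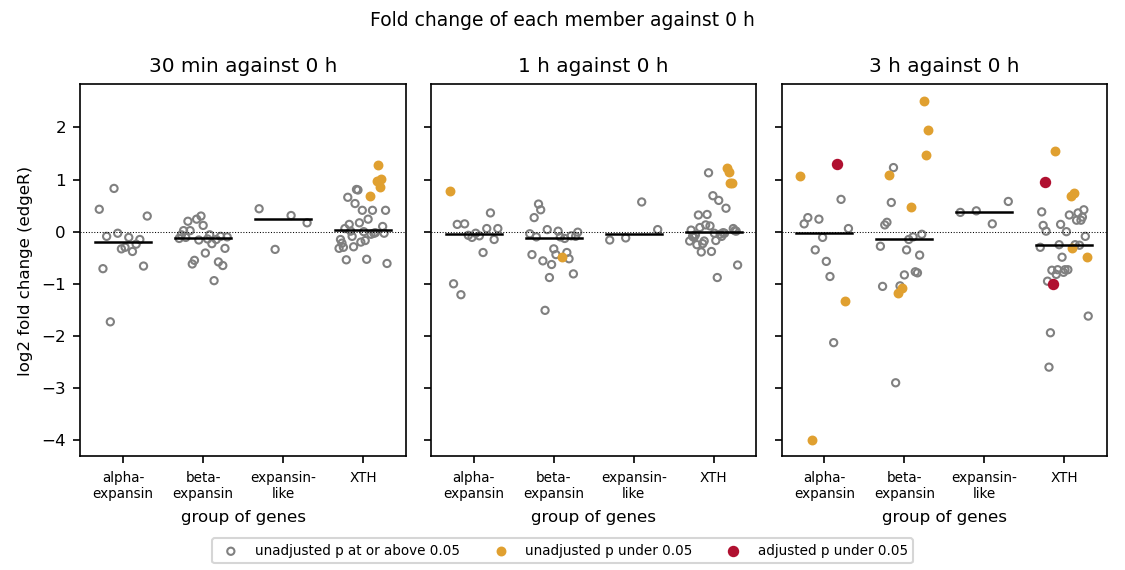
Each point is the edgeR log2 fold change of 1 member against 0 h at 30 min, 1 h and 3 h, by class, with the class median as a line. Red points passed over all genes, orange points had an unadjusted p under 0.05 alone. The orange XTH points at 30 min and 1 h lie between 0.69 and 1.27, and all 3 red points stand in the panel of 3 h.

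Among alpha-expansins 1 of 14 rose at 3 h against 0 h without the replicate block (background 1.68%), and 2 with it (background 2.96%). HORVU.MOREX.r2.5HG0437890.1 (5H, 574286220 to 574288139, minus strand) has the Arabidopsis wall-loosening protein Expansin-A4 as its listed homolog. It had 20.5, 23.5 and 16.5 CPM at 0 h, 15.4, 17.2 and 18.4 CPM at 30 min, 21.7, 19.4 and 21.8 CPM at 1 h and 38.8, 55 and 54.8 CPM at 3 h. All 3 libraries of 3 h lay above the other 9, which overlapped among themselves. It averaged 49.6 ± 9.28 CPM at 3 h and 20.2 ± 3.53 CPM at 0 h (SD, n = 3 each). Its log2 fold change was 1.30 with an SE of 0.172 (edgeR adjusted p = 0.0015). It also rose at 3 h against 30 min, by 1.54 ± 0.174 (adjusted p = 0.000552), and against 1 h, by 1.24 ± 0.172 (adjusted p = 0.00346). In these 3 comparisons it passed with each of the 12 libraries left out in turn, with a highest adjusted p of 0.0286.

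A second alpha-expansin passed with the replicate block. HORVU.MOREX.r2.1HG0057310.1, with rice Expansin-A4 as its homolog, had 19.8, 27.7 and 24.3 CPM at 0 h, 19.1, 37.0 and 41.0 CPM at 30 min, 27.1, 57.2 and 39.8 CPM at 1 h and 33.7, 59.8 and 56.8 CPM at 3 h. The 3 h libraries lay above all of 0 h and overlapped those of 1 h. At 3 h against 0 h the log2 fold change was 1.06 ± 0.332 (edgeR adjusted p = 0.169, with the replicate block 0.00237, by DESeq2 0.047). Against 30 min it stood at 0.63 ± 0.329 at 3 h (edgeR adjusted p = 0.499, with the replicate block 0.0303). The other 12 alpha-expansins had no call at 3 h against 0 h by any of these fits.

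None of the 23 beta-expansins passed by edgeR with all libraries and no block at 3 h against 0 h (background 2.48%). With the replicate block 3 passed (background 5.09%). The highest expansin, HORVU.MOREX.r2.1HG0044660.1, had 105, 151 and 159 CPM at 0 h, 108, 169 and 200 CPM at 30 min, 163, 209 and 227 CPM at 1 h and 192, 339 and 354 CPM at 3 h. All 3 libraries of 3 h were above those of 0 h, though replicate 1 of 3 h lay within the range of 30 min and 1 h. It averaged 295 ± 89.7 CPM at 3 h and 138 ± 28.9 CPM at 0 h (SD, n = 3 each). The log2 change from 0 h was 1.09 ± 0.277 (edgeR adjusted p = 0.0704), with 0.00015 under the replicate block, 0.006 by DESeq2 and, in the authors' deposited table, 0.00688. It passed without replicate 1 of 30 min (0.0431) or of 3 h (0.0185). Set against 30 min and 1 h, it stood at 0.89 ± 0.276 and 0.56 ± 0.275 at 3 h (edgeR adjusted p = 0.138 and 0.37, with the replicate block 0.000587 and 0.0151).

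Its 4 neighbours among the members, all beta-expansins within 668.3 kb of 1H (379277812 to 379946080), did not share that estimate. In log2 fold change at 3 h against 0 h, 1HG0044650 stood at 0.18 ± 0.584, HORVU.MOREX.r2.1HG0044630.1 at 0.13 ± 0.432, HORVU.MOREX.r2.1HG0044610.1 at -0.28 ± 0.611 and 1HG0044620 at -1.05 ± 1.02, none of which passed. The span holds 6 genes in the deposited table, 5 of them beta-expansins. The SE of these 4 was larger than that of 1HG0044660, also with the replicate block. With the block they stood at 0.07 ± 0.248, 0.18 ± 0.184, -0.16 ± 0.19 and -0.88 ± 0.368, in the same order. 1HG0044660 stood at 1.07 ± 0.11 with it, and none of the 4 neighbours passed. In each of them, and in 1HG0044660 too, replicate 3 was higher than replicate 1 at all 4 times.

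A second run of beta-expansins, 3 genes within 647.0 kb of 6H (421955747 to 422602774), held 3 of the 4 largest positive estimates of all members at 3 h. All 3 have Arabidopsis Expansin-B4 as their first listed homolog. HORVU.MOREX.r2.6HG0498350.1 had 9.2, 12.7 and 23.1 CPM at 0 h, 3.94, 11.9 and 26.2 CPM at 30 min, 6.0, 11.5 and 27.3 CPM at 1 h and 20.9, 84.3 and 70.9 CPM at 3 h. HORVU.MOREX.r2.6HG0498340.1 had 9.01, 14 and 25 CPM at 0 h, 5.82, 9.55 and 23.0 CPM at 30 min, 7.12, 10.9 and 27.2 CPM at 1 h and 25, 61.0 and 49.3 CPM at 3 h. In each the highest library of 0 h, replicate 3, reached the lowest of 3 h, replicate 1, while within every replicate number the 3 h library was the highest of the 4. Their log2 fold changes at 3 h against 0 h were 1.96 ± 0.722 and 1.48 ± 0.597 (edgeR adjusted p = 0.29 and 0.368), with 0.00347 and 0.0037 under the replicate block. Both also passed with the block at 3 h against 30 min (0.00129 and 0.000994, without it 0.21 and 0.179) and against 1 h (0.00233 and 0.00236, without it 0.221 and 0.239). The third, HORVU.MOREX.r2.6HG0498280.1, had 0.966, 1.91 and 0.99 CPM at 3 h and 0.0644, 0.152 and 0.396 CPM at 0 h, where replicate 1 was under the floor of 3 reads, and it did not pass (edgeR adjusted p = 0.289). With the block it passed against 30 min (0.0413, without it 0.143) and against 1 h (0.0297, without it 0.131). No source used here says how reads that match several genes were counted, and the likeness of these neighbours in sequence was not measured, so whether they share reads is not known.

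The beta-expansins with the largest negative estimates among those averaging at least 1 CPM had few reads. HORVU.MOREX.r2.3HG0265810.1 had 0.736, 0.689 and 0.33 CPM at 3 h and 1.16, 0.761 and 2.04 CPM at 0 h. HORVU.MOREX.r2.3HG0266070.1 had 1.38, 2.51 and 1.53 CPM at 3 h and 3.22, 2.66 and 5.52 CPM at 0 h. In both, every library of 3 h was below every library of 0 h, and the log2 fold changes of -1.18 ± 0.529 and -1.08 ± 0.423 did not pass (edgeR adjusted p = 0.46 and 0.35). Against 30 min, 3HG0266070 stood at -1.37 ± 0.424 (adjusted p = 0.137) and passed under the replicate block (0.0294) and by DESeq2 (0.0393). Another 4 members, at 0.188 to 0.904 CPM on average, had estimates under -2 with an SE of at least 1.71, and none passed. Over all members, 10 had all 3 libraries of 3 h above those of 0 h, 6 expansins and 4 XTH genes (background 6.66%), and 7 had them below, 3 expansins and 4 XTH genes (background 6.63%).

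The 4 expansin-like genes, whose wall-loosening activity is not established, all had positive estimates at 3 h against 0 h, from 0.15 to 0.58, and none passed. The highest of them, 4HG0341400, had 94.7, 62.2 and 73.2 CPM at 0 h, 68.6, 46.8 and 65.9 CPM at 30 min, 62.6, 78.1 and 71.3 CPM at 1 h and 82.7, 116 and 106 CPM at 3 h. The 3 h libraries were above those of 30 min and 1 h and overlapped those of 0 h. Its log2 fold change at 3 h against 30 min was 0.75 ± 0.199 (edgeR adjusted p = 0.0782, with the replicate block 0.0436). The expansin without a class, HORVU.MOREX.r2.4HG0308790.1, stayed at or under 0.575 CPM.

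Of the 34 XTH genes 1 rose (background 1.68%) and 1 fell (background 0.799%) at 3 h against 0 h without the replicate block. With it 3 rose (background 2.96%) and 1 fell (background 2.13%). HORVU.MOREX.r2.2HG0114810.1 (2H, 204540071 to 204541882, minus strand) had 31.5, 43.1 and 44.3 CPM at 0 h, 26.3, 31.6 and 38.6 CPM at 30 min, 30.1, 34.3 and 45.5 CPM at 1 h and 58.7, 83.4 and 87.8 CPM at 3 h. All 3 libraries of 3 h lay above the other 9. It averaged 76.6 ± 15.7 CPM at 3 h and 39.6 ± 7.03 CPM at 0 h (SD, n = 3 each), or 0.95 ± 0.219 (SE) in log2 fold change by edgeR (adjusted p = 0.044). This call was lost when 1 library was left out, be it any of 0 h, replicate 2 of 30 min, replicates 1 or 2 of 1 h or replicates 2 or 3 of 3 h, at adjusted p from 0.0526 to 0.177. It rose too against 30 min, by 1.25 ± 0.22 (adjusted p = 0.00993, without replicate 2 of 30 min 0.0522), and against 1 h, by 1.06 ± 0.219 (adjusted p = 0.0282). The last was lost without replicates 1 or 2 of 1 h or 2 or 3 of 3 h, at 0.0967 to 0.134.

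The XTH gene that fell, HORVU.MOREX.r2.2HG0165790.1 (2H, 632074221 to 632075745, plus strand), is the second highest of the family. It had 238, 410 and 266 CPM at 0 h, 251, 308 and 297 CPM at 30 min, 253, 260 and 268 CPM at 1 h and 154, 180 and 121 CPM at 3 h. The 3 h libraries lay below the other 9, and replicate 2 of 0 h lay above all. It averaged 152 ± 29.5 CPM at 3 h and 305 ± 92.0 CPM at 0 h (SD, n = 3 each), or -1.01 ± 0.204 (SE) in log2 fold change by edgeR (adjusted p = 0.023). The call was lost when replicate 2 of 0 h was left out (adjusted p = 0.065) and likewise replicate 1 (0.0555) or replicate 3 (0.108) of 3 h. Against 30 min it fell by 0.91 ± 0.204 on the log2 scale (adjusted p = 0.0375, lost when any 1 library of 30 min, 1 h or 3 h was left out, at 0.0509 to 0.158), and against 1 h it stood at -0.78 ± 0.203 (adjusted p = 0.0852, with the replicate block 0.0112).

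A further XTH gene had the largest positive estimate of the family. HORVU.MOREX.r2.2HG0168200.1 (2H, 638753364 to 638753950, minus strand), described as xyloglucan endotransglucosylase/hydrolase 5, has a coding length of 378 bases, against a median of 862.5 bases over the members. It had 15.1, 11.3 and 7.36 CPM at 0 h, 12.9, 8.15 and 6.44 CPM at 30 min, 12.9, 10.9 and 5.86 CPM at 1 h and 43.8, 31.0 and 22.7 CPM at 3 h. The 3 h libraries stood above the other 9, and within every time replicate 1 was highest and replicate 3 lowest. Among 42 expansins, 24 had replicate 3 above replicate 1 at all 4 times. Its log2 fold change at 3 h against 0 h was 1.54 ± 0.373 (edgeR adjusted p = 0.0562, with the replicate block 4.47e-05). It rose against 30 min, by 1.83 ± 0.377 (adjusted p = 0.025, lost without replicates 2 or 3 of 30 min or 1 or 2 of 3 h, at 0.0622 to 0.112). Against 1 h it rose by 1.72 ± 0.374 (adjusted p = 0.0374, lost without replicate 2 of 0 h, replicate 2 of 30 min, any 1 replicate of 1 h or replicates 1 or 2 of 3 h, at 0.0538 to 0.124). HORVU.MOREX.r2.7HG0535180.1, with Arabidopsis XTH25 as its homolog, passed at 3 h with the block, with 63.2, 70.2 and 60.4 CPM at 3 h, 27.7, 34.3 and 53.1 CPM at 0 h and a log2 fold change of 0.75 ± 0.232 (adjusted p = 0.167, with the replicate block 0.0434, without replicate 3 of 0 h 0.0353). Against 1 h it stood at 0.76 ± 0.232 at 3 h (edgeR adjusted p = 0.14, with the replicate block 0.0358, by DESeq2 0.0379).

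**Figure D4:**
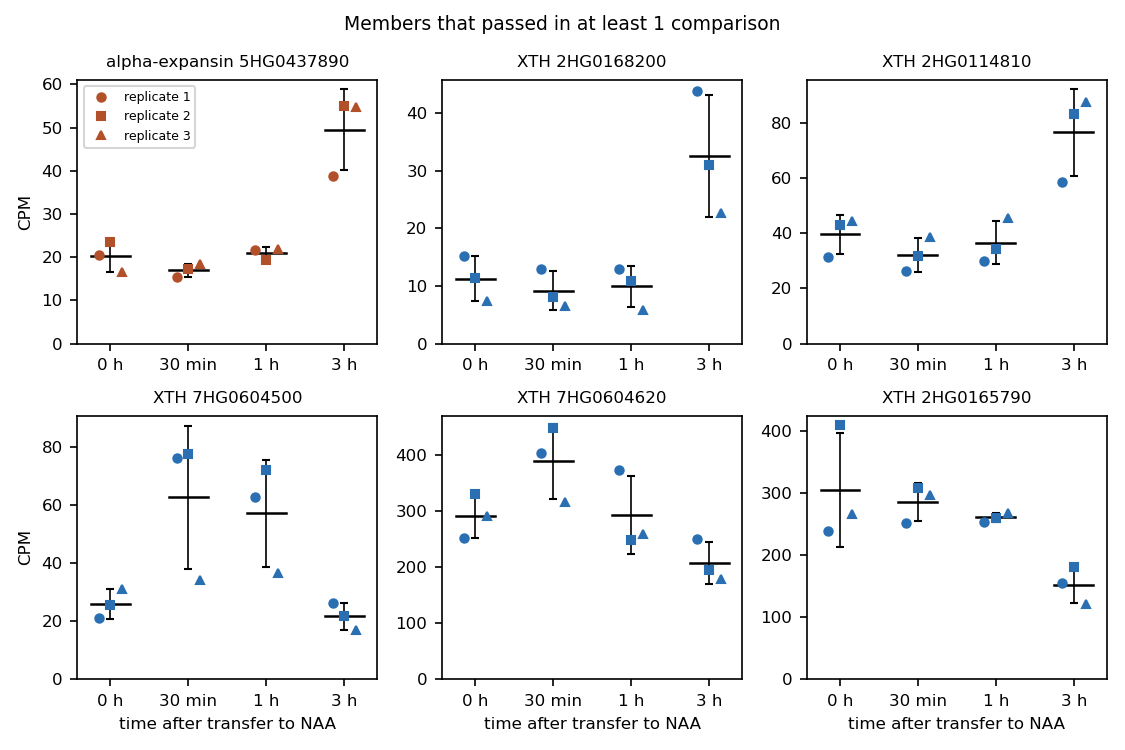
Levels in CPM of the 6 members that passed in at least 1 comparison, 1 panel a gene, by time. Symbols mark the replicate number, lines the mean and bars the SD (n = 3). The alpha-expansin and the XTH genes 2HG0168200 and 2HG0114810 are highest at 3 h in all 3 libraries, and 2HG0165790 is lowest there.

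A group of XTH genes on 7H had another time course. The 7 members between 576521534 and 577421282 lie within 899.7 kb, which holds 14 genes in the deposited table and no other gene of either description. Of these, 4 had estimates of 0.85 to 1.27 at 30 min and 0.93 to 1.23 at 1 h against 0 h, each at an unadjusted p under 0.05 and none passing. They make up all 4 XTH genes at that threshold at 1 h and 4 of the 5 at 30 min, the fifth being HORVU.MOREX.r2.6HG0502370.1 on 6H. Over all members, all 3 libraries lay above those of 0 h in 4 XTH genes and 2 expansins at 30 min (background 4.68%) and in 5 XTH genes and 2 expansins at 1 h (background 7.16%).

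The first of them, HORVU.MOREX.r2.7HG0604490.1 (576521534 to 576522622, minus strand), had 78.0, 96.2 and 110 CPM at 0 h, 200, 221 and 141 CPM at 30 min, 219, 288 and 158 CPM at 1 h and 140, 143 and 80.5 CPM at 3 h. All libraries of 30 min and of 1 h were above those of 0 h, and those of 3 h overlapped both 0 h and 30 min. Its log2 fold change at 1 h was 1.23 ± 0.274 (edgeR adjusted p = 0.326), and it was called by DESeq2 (0.00886) and in the authors' deposited table (0.00926). At 30 min it was 0.98 ± 0.273 (edgeR adjusted p = 0.682). Against 1 h it stood at -0.87 ± 0.272 at 3 h (edgeR adjusted p = 0.148, with the replicate block 0.0301).

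Its neighbour HORVU.MOREX.r2.7HG0604500.1 (576588357 to 576589427, minus strand), whose Arabidopsis homolog is XTH23, had 20.9, 25.7 and 31.1 CPM at 0 h, 76.1, 77.8 and 34.3 CPM at 30 min, 62.7, 72.2 and 36.6 CPM at 1 h and 26.3, 21.8 and 16.8 CPM at 3 h. Replicates 1 and 2 of 30 min and 1 h stood far above 0 h, and replicate 3 was just above it. Its log2 fold changes were 1.27 ± 0.33 at 30 min and 1.14 ± 0.329 at 1 h against 0 h (edgeR adjusted p = 0.583 and 0.59). It fell at 3 h against 30 min, to 21.6 ± 4.74 CPM at 3 h, against 62.7 ± 24.7 CPM at 30 min (SD, n = 3 each), or -1.54 ± 0.333 in log2 fold change by edgeR (adjusted p = 0.0325). That call was lost without replicate 2 of 0 h, replicates 1 or 2 of 30 min, replicate 1 of 1 h or replicates 2 or 3 of 3 h, at 0.0509 to 0.145. Against 1 h it stood at -1.40 ± 0.332 at 3 h (edgeR adjusted p = 0.0567, with the replicate block 0.0124), and against 0 h at -0.26 ± 0.328.

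The genes HORVU.MOREX.r2.7HG0604520.1 and HORVU.MOREX.r2.7HG0604530.1, on the plus strand, had log2 fold changes of 0.85 ± 0.319 and 1.01 ± 0.284 at 30 min against 0 h and of 0.22 ± 0.318 and 0.28 ± 0.282 at 3 h. All 4 genes have the same first listed rice homolog, OS06T0697000-02, and whether they share reads is not known either. In each of them replicate 3 was the lowest library at 30 min and at 1 h.

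The other 3 members of the group had other homologs in rice and other courses. HORVU.MOREX.r2.7HG0604570.1 ranged from 5.81 CPM to 39.2 CPM with no order of the times, and HORVU.MOREX.r2.7HG0604580.1 stayed between 0.743 CPM and 1.56 CPM. The highest XTH gene, HORVU.MOREX.r2.7HG0604620.1, had 252, 331 and 292 CPM at 0 h, 403, 448 and 316 CPM at 30 min, 373, 248 and 259 CPM at 1 h and 250, 194 and 179 CPM at 3 h. Its 3 h libraries lay below all those of 30 min and, replicate 1 only just, below all those of 0 h. It fell to 208 ± 37.4 CPM at 3 h, against 389 ± 66.9 CPM at 30 min (SD, n = 3 each), or -0.91 ± 0.201 in log2 fold change by edgeR (adjusted p = 0.0364). The call was lost without replicate 3 of 0 h, replicates 1 or 2 of 30 min, replicate 2 of 1 h or replicates 2 or 3 of 3 h, at 0.0507 to 0.158. Against 0 h it stood at -0.49 ± 0.2 at 3 h (edgeR adjusted p = 0.377).

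**Figure D5:**
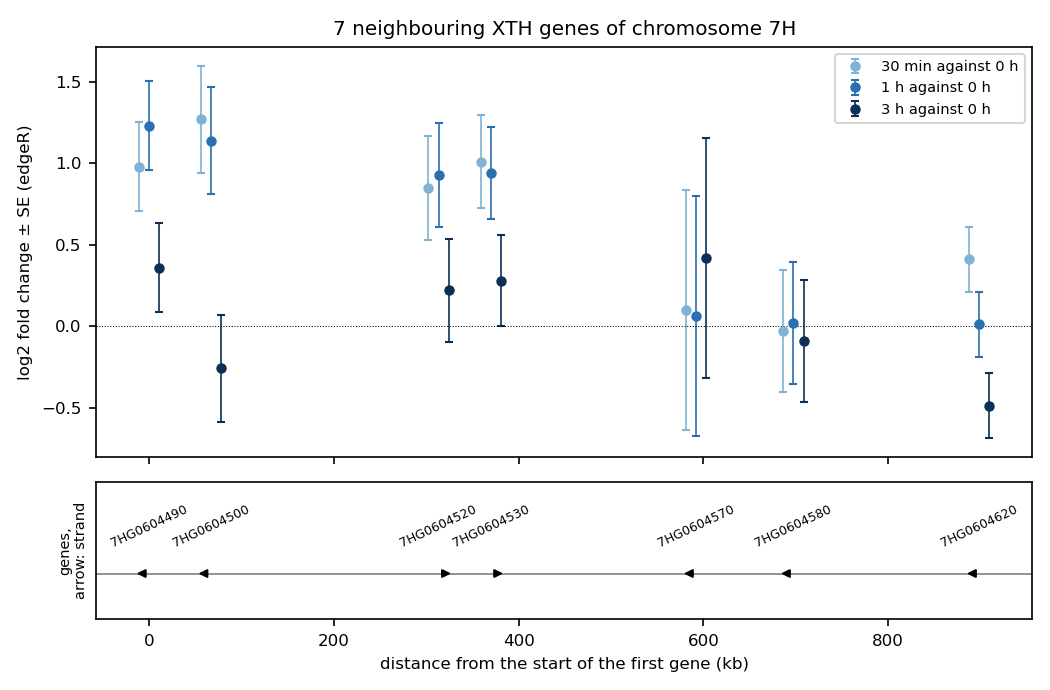
Log2 fold change with its SE (edgeR) of the 7 neighbouring XTH genes at 30 min, 1 h and 3 h against 0 h, by distance from the first gene in kb, with each gene's strand below. The 4 genes within the first 370.8 kb stand near 1 at 30 min and 1 h and at or under 0.36 at 3 h.

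With the later times set against each other, 5 XTH genes and 1 expansin passed at 3 h against 30 min (background 2.68%). The 3 higher (background 1.52%) were the alpha-expansin 5HG0437890, 2HG0114810 and 2HG0168200, and the 3 lower (background 1.16%) were the XTH genes 2HG0165790, 7HG0604500 and 7HG0604620. With the replicate block 9 expansins and 6 XTH genes passed (background 6.36%), by DESeq2 5 of each (background 5.49%) and the authors' deposited table called 6 expansins and 5 XTH genes (background 5.34%). The 3 h libraries set against those of 1 h gave 1 expansin and 2 XTH genes (background 2.08%), all higher (background 1.19%), with the block 6 of each family (background 6.79%) and by DESeq2 1 expansin and 5 XTH genes (background 5.33%). None passed at 1 h against 30 min (background 0.0%), with 1 of each family at an unadjusted p under 0.05 (background 2.95%) and none by DESeq2 (background 0.0923%). Over the 4 times together 1 expansin and 3 XTH genes passed (background 2.3%), namely 5HG0437890, 2HG0114810, 2HG0168200 and 7HG0604500. With the block 7 expansins and 6 XTH genes did (background 5.8%), and by DESeq2 4 expansins and 8 XTH genes (background 6.37%).

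Taking each family's members by position, 34 of the 76 lay within 500 kb of another member, in 11 groups of 2 to 7 genes. The XTH groups were on 2H (4 genes), 3H (3 genes) and 7H (7 genes), and the other 8 groups were expansins. Neighbours on 3H with Arabidopsis XTH25 as homolog, HORVU.MOREX.r2.3HG0194200.1, HORVU.MOREX.r2.3HG0194210.1 and HORVU.MOREX.r2.3HG0194220.1, had log2 fold changes of 0.54 ± 0.521, 0.81 ± 0.687 and 0.80 ± 0.93 at 30 min against 0 h, none with an unadjusted p under 0.05. The 4 XTH neighbours on 2H (615216798 to 615411795) had negative estimates at 3 h against 0 h, from -2.60 to -0.74, and none passed. Their highest, HORVU.MOREX.r2.2HG0159930.1, averaged 3.9 CPM. Of the beta-expansin pair on 4H, 4HG0346610 had 65.1 CPM to 101 CPM over the 12 libraries and 4HG0346590 46.1 CPM to 104 CPM, with overlapping times in both.

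Some other genes that act on wall polymers changed at 3 h against 0 h, where 1.68% of all tested genes were higher and 0.799% lower. With the replicate block 5.09% of all tested genes passed in either direction. Of 19 tested endoglucanases 3 rose (3 also with the replicate block): HORVU.MOREX.r2.5HG0396590.1 averaged 45.2 ± 2.08 CPM at 3 h and 20.8 ± 0.475 CPM at 0 h (SD, n = 3 each, edgeR adjusted p = 0.000281), and HORVU.MOREX.r2.1HG0071010.1 and HORVU.MOREX.r2.5HG0389850.1 rose by 2.20 ± 0.414 and 2.44 ± 0.565 in log2 fold change. Among 21 wall glycosidases a beta-galactosidase gene rose (HORVU.MOREX.r2.3HG0248650.1, log2 fold change 1.49 ± 0.232) and another fell (HORVU.MOREX.r2.7HG0594280.1, -1.08 ± 0.203). Of 23 other xyloglucan genes 1 rose, the galactosyltransferase gene HORVU.MOREX.r2.1HG0031330.1 (1.41 ± 0.287), and with the block 3 passed. Of 17 extensin genes, for structural wall proteins, 1 rose (HORVU.MOREX.r2.2HG0138080.1, 2.56 ± 0.469), with the block 2 passed, and of 6 plasma membrane proton pumps, which acidify the wall, none passed. No gene of these lists was called at 30 min or at 1 h. The proton pumps summed to 610 to 717 CPM at 1 h and to 472 to 553 CPM at 0 h. At 3 h their sums ran from 354 to 666 CPM.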

How the data were processed

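The labels describe poly(A) libraries from a directional kit, read from both ends for 150 bases. Programs named in the submitters' processing notes are HISAT2 2.0.5, Subread 1.5.2, SAMtools and bcl2fastq. No source used here gives the build, or how strand and multi-mapped reads were treated; coordinates are those in the deposited table. Raw counts per gene were deposited by the authors without normalization. A second table, which the authors deposited, gives log2 fold changes and adjusted p-values by a tool that is not stated. It holds 12 further columns of per-sample values that were not used.

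The tests used edgeR 4.0.16 (with limma 3.58.1 in R 4.3.3), TMM scaling, filterByExpr (minimum count 10, minimum total 15) and 1 model of the 4 times with 8 residual degrees of freedom, and adjusted over 24920 genes. DESeq2 1.42.0 was an alternative. Figures were drawn with matplotlib 3.10.9. CPM used TMM-scaled library sizes. Of all deposited lengths 98.9% are multiples of 3, so they are called coding lengths. The floor of 3 reads covers counting error alone. The procedure was also run on simulated counts without a replicate effect, so that run does not cover libraries that deviate together by replicate number.

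Same-numbered libraries were checked for pairing by the correlation of residuals. Of 18 such pairs 17 exceeded 0.1 (0.0958 to 0.674, against -0.593 to 0.268 for other pairs). Every pair did in 5 of the 6 comparisons, and in 1 h against 0 h the lowest was 0.0958. The block value is printed beside the members' results where it changed a call. Where the numbers come from is not in the labels, so p-values measure the spread between these libraries, which may be technical in part. Replicates were not duplicates (15.6 to 85.2 in chi-square over its degrees of freedom).

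The members, the word lists and this use of the block were chosen with earlier results of these data known. Named genes, 21 in all, are members that passed in any test, the 4 highest of each family by level, the 3 largest rises and falls of each at 3 h against 0 h averaging 1 CPM or more, and members that passed against 0 h by the block or DESeq2 alone. Further genes are named as neighbours of these or to illustrate a stated pattern, after their values were seen.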

Additional observations from a re-analysis of the deposited data

How the results depend on the processing

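Each count of members called was recomputed under other settings. At 30 min against 0 h and 1 h against 30 min it was 0 under every setting run. At 1 h against 0 h it was 1 by DESeq2 (background 0.486%) and 0 otherwise. At 3 h against 0 h it was 3 in the report (background 2.48%). DESeq2 gave 6 (background 4.46%) and the replicate block 9 (background 5.09%). It was 5 with no filter on low counts and 1 with only the 2 times compared. Without single libraries it was 1 to 5 (1 without replicate 2 of 0 h or 3 of 3 h, 5 without replicate 1 of 30 min). At 3 h against 30 min it was 6 in the report (background 2.68%). There DESeq2 gave 10 (background 5.49%), the block 15 (background 6.36%) and a fit of only the 2 times 2. Without single libraries it was 1 to 6 (3 without replicate 1 of 30 min or 3 of 3 h, 2 without 2 of 3 h, 1 without 2 of 30 min). At 3 h against 1 h it was 3 in the report (background 2.08%). Here DESeq2 gave 6 (background 5.33%), the block 12 (background 6.79%) and a fit of only the 2 times 1. Without single libraries it was 1 to 4 (1 without replicates 1 or 2 of 1 h or 2 of 3 h). For the time course, 4 in the report (background 2.3%), it was 12 by DESeq2 (background 6.37%) and 13 with the block (background 5.8%). Without single libraries it was 1 to 5 (1 without replicate 2 of 30 min or of 3 h, 2 without 2 of 1 h or 1 or 3 of 3 h). DESeq2's size factors in edgeR and a filter of 10 reads in 3 libraries left each count as reported.

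With single libraries left out, the median at 3 h against 0 h ran from -0.17 to 0.44 for expansins and from -0.35 to 0.09 for XTH genes, both at the high end without replicate 3 of 0 h. Among 792 values of 44 results on named members 1 reversed, 2HG0159870 at 3 h against 0 h, at -0.95 with all libraries and -1.57 to 0.24 without single libraries, the last without replicate 3 of 0 h. The pairing check was met in 5 comparisons, yet the calls given are from the fit without the block unless the block is named. For 1 h against 0 h, where the check was not met, the block called 0 members. In 12 of 12 libraries the best correlate was one with the same number. The cause of these shifts was not tested. With 3 libraries a time, a member that did not pass is not shown to be unchanged.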

Other observations

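Some members outside the naming rule passed with the replicate block, and not by edgeR without it, at the later times, and they were chosen here after their values were seen. The beta-expansin HORVU.MOREX.r2.2HG0156980.1 had 1.24, 6.69 and 10.3 CPM at 3 h and 0.0465, 0.512 and 4.6 CPM at 1 h, with the 3 h library higher within every replicate number. Its log2 fold change at 3 h against 1 h was 1.79 ± 1.26 (edgeR adjusted p = 0.565, with the replicate block 0.0125). Against 30 min it stood at 1.85 ± 1.27 at 3 h (edgeR adjusted p = 0.684, with the replicate block 0.0165). The XTH gene HORVU.MOREX.r2.1HG0072160.1 had 104, 155 and 138 CPM at 3 h and 80.8, 88.0 and 105 CPM at 30 min, a log2 fold change of 0.53 ± 0.184 (edgeR adjusted p = 0.196, with the replicate block 0.0296).

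The XTH gene HORVU.MOREX.r2.6HG0502370.1, with Arabidopsis XTH30 as its homolog, had 23.8, 28.1 and 26.2 CPM at 0 h, 46.6, 52.4 and 27.1 CPM at 30 min, 30.9, 23.3 and 21.5 CPM at 1 h and 36.7, 38.2 and 51.2 CPM at 3 h. All libraries of 3 h lay above those of 0 h, and those of 30 min and 1 h overlapped 0 h. It passed in no comparison by edgeR.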
